A study of Ovis aries with 8 samples.

Results

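The genes described here encode the eukaryotic translation initiation factors (eIFs), the kinases that phosphorylate eIF2 and the proteins that hold the cap-binding factor eIF4E. They were chosen by name, as the rows whose gene symbol begins with EIF and a digit from 1 to 6, and 44 of the 27057 rows of the deposited expression table met this rule. RNA of cultured hepatocytes from fetal sheep was sequenced in 8 libraries. Each of 4 numbered cell preparations gave 1 basal library and 1 library after 24 h with metformin, an antidiabetic biguanide. Neither the labels nor the design text give a dose, a vehicle, a fetal age or the animals used. The preparations may therefore be separate animals or not. The p-values of the main fit set the metformin change against its variation among the 4 preparations. Differences in level between preparations are taken out, and the variances are moderated over all genes. The values are FPKM, fragments per transcript length scaled to library size. They allow levels of different genes to be set side by side, but not the number of reads behind a value, so no counting interval is given.

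In eukaryotes, eIF2 carries the initiator methionine tRNA to the small ribosomal subunit as a complex with GTP, and eIF2B recharges eIF2 with GTP after each round. Phosphorylation of the alpha subunit of eIF2 turns it into an inhibitor of eIF2B, which lowers protein synthesis as a whole while the mRNAs of some stress factors, ATF4 among them, are translated more. A separate step brings the ribosome to the mRNA. There eIF4E binds the cap, the scaffold eIF4G joins it to the helicase eIF4A and to eIF3 on the ribosome, and the eIF4E-binding proteins block this joining unless mTORC1 phosphorylates them.

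With metformin the eIF2 kinase gene EIF2AK3, which encodes PERK, the kinase that responds to unfolded proteins in the endoplasmic reticulum, rose 5.28-fold in the fit, and EIF2AK4, which encodes GCN2, the kinase that responds to amino acid shortage, fell to 0.514 of its basal level. EIF4EBP1, which encodes an inhibitor of eIF4E, rose 2.36-fold and the start codon selection factor EIF1 rose 2.01-fold. Of the 43 members that passed the filter on low values (4 or more libraries at an FPKM of 1 or higher), 14 rose and 3 fell at a limma adjusted p under 0.05, and 26 did not pass. In all, 39.5% of the tested members changed, against 43.9% of the 13141 genes tested. The members that rose were 32.6% of those tested, against 19.8% of all genes, and those that fell were 6.98%, against 24.1%. In a fit limited to the 10796 genes with a mean FPKM of at least 5, 21.8% rose and 21.5% fell. All 43 members were in that fit, with 14 that rose and 3 that fell. The median log2 change of the members was 0.19, and that of all genes was -0.04, or 0.007 at a mean FPKM of at least 5. The 44th member, EIF4E1B, an eIF4E-like gene, was listed at 0 in all 8 libraries.

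**Figure D1:**
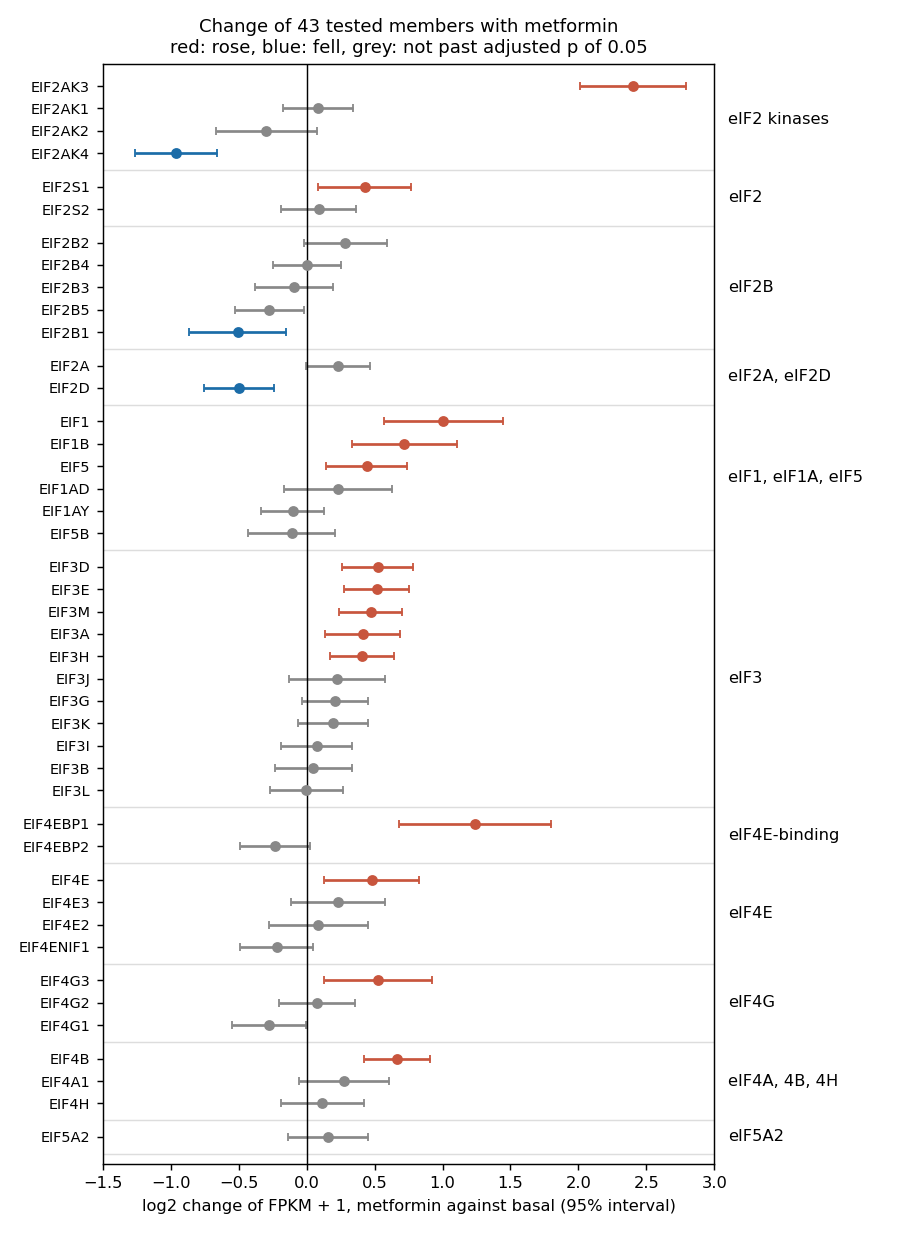
Log2 change of FPKM + 1 with metformin (x axis) for each of the 43 tested members, ordered by role, with the 95% interval from the moderated variances of 4 preparations. EIF2AK3 at 2.40 and EIF2AK4 at -0.96 lie at the ends, the red points of the other 13 members that rose lie between 0.41 and 1.24, the blue points of EIF2B1 and EIF2D lie at -0.51 and -0.50, and grey points lie between -0.30 and 0.28.

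These 43 members moved unequally among the preparations. In preparation 1, 31 were higher with metformin and 12 lower, and in preparation 2, 34 were higher and 9 lower. In preparation 3, 24 were higher and 19 lower, and in preparation 4, 23 were higher and 20 lower. Median-of-ratios scaling factors of preparations 1 to 4 were 1.02, 0.887, 1.06 and 1.07 in basal and 0.979, 0.970, 1.07 and 0.983 in metformin libraries. The libraries thus differed in scale, and all genes were not counted by preparation. The differences between preparations are therefore not read as a trait of the members. The median log2 change of the 14 members that rose was smallest in preparation 3, at 0.30, and 0.52, 0.78 and 0.53 in preparations 1, 2 and 4. Of the 17 called members, 16 moved the same way in all 4 preparations, the exception being EIF2S1. In 14 of the 43 tested members the groups did not overlap, against 25.9% of all genes tested. In 18 of the 43 the metformin library was the higher in all 4 preparations, against 28% of all genes, and in 7 it was the lower in all 4, against 32.2%. Without preparation as a block 6 members rose and 2 fell, against 9.68% and 9.48% of all genes tested. Calls were also fewer, among members and among all genes, with 1 preparation left out. Without preparation 1, 7 members rose and 1 fell, against 12.8% and 15.2% of all genes. Without preparation 2 there were 9 and 2, against 13.2% and 18.2% of all genes, and without preparation 4 there were 9 and 2, against 15.1% and 16.1%. Summed over the 44 members, FPKM made up 0.489% to 0.672% of the library total in basal and 0.706% to 0.813% in metformin libraries, so the ranges did not overlap. Abundant genes weigh most in this sum, such as EIF1 (means of 827.6 and 1639 FPKM in basal and metformin libraries) and EIF4EBP1 (596.0 and 1339). It is not a measure of the family as a whole, since 26 of the 43 tested members did not pass.

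Markers of hepatocytes and, at lower summed levels, of other liver cell types were detected. Of 16 hepatocyte markers 11 fell and 1 rose, and their summed FPKM was 25977 to 44734 in basal and 15168 to 34585 in metformin libraries. Of 10 stellate and fibroblast markers 8 fell, with sums of 1707 to 3470 and 730.1 to 1988, of 9 tested endothelial markers 5 fell, with sums of 83.3 to 354.0 and 76.1 to 274.5, and none of either list rose. Of 9 macrophage markers 5 fell and 1 rose (sums of 1333 to 2724 and 1430 to 2484), of 7 tested cholangiocyte markers 3 fell and 2 rose (1425 to 8762 and 1307 to 4296), and none of 6 erythroid markers passed the test (1.45 to 71.6 and 3.04 to 59.0). Of all genes tested 24.1% fell and 19.8% rose, and without preparation as a block 9.48% fell and 9.68% rose. Many of these marker calls rested on the pairing, and those of stellate, endothelial and macrophage markers also on single preparations. Without preparation as a block 2 hepatocyte markers fell and 1 rose, none of the stellate, endothelial or macrophage markers passed, and 2 cholangiocyte markers fell and 1 rose. Leaving out 1 preparation gave 4 to 8 stellate markers, 1 to 4 endothelial markers and 2 or 3 macrophage markers that fell, with 5 stellate and 2 endothelial markers without preparation 2, 4 and 2 without preparation 3, and 4 and 1 without preparation 4. With preparation 1, 2, 3 or 4 left out, 10, 11, 11 and 8 hepatocyte markers fell and 1 rose. In each of these fits 3 cholangiocyte markers fell and 2 rose. None of these marker genes was at 0 in every library. In bulk RNA fewer cells of a type and less RNA per cell cannot be told apart, and the part of cell composition in the changes of the initiation factors was not tested.

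The 4 eIF2 kinases did not move together. EIF2AK3 (ENSOARG00000020774) had 44.96, 41.2, 38.5 and 53.0 FPKM in the basal libraries of preparations 1 to 4, and 280.2, 308.6, 170.5 and 215.2 FPKM with metformin. Each metformin library was at least 4.06 times its own basal library, the groups did not overlap, and the smallest relative rise was in preparation 4. The means were 44.4 ± 6.32 and 243.7 ± 62.5 FPKM (SD, n = 4 per group), the log2 change was 2.40 ± 0.16 (SE) and the adjusted p was 0.000627. Among the members EIF2AK3 was 24th by mean FPKM in basal libraries and 9th with metformin.

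EIF2AK4 (ENSOARG00000020101) had 15.02, 18.3, 15.4 and 11.3 FPKM in basal libraries and 5.52, 10.4, 8.12 and 5.42 FPKM with metformin. All 4 preparations were lower with metformin and the groups did not overlap (means of 15.01 ± 2.88 and 7.36 ± 2.36 FPKM, log2 change -0.96 ± 0.13, adjusted p = 0.00207). EIF2AK3 and EIF2AK4 kept their calls in all 12 alternative analyses, with adjusted p of at most 0.0418 and 0.0452.

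EIF2AK1, which encodes HRI, the kinase that responds to lack of heme, had 37.3, 32.4, 39.6 and 43.4 FPKM in basal and 37.6, 38.8, 44.3 and 40.6 FPKM in metformin libraries. The groups overlapped, and the log2 change of 0.08 (95% interval -0.17 to 0.34, adjusted p = 0.560) did not pass the test. EIF2AK2, which encodes PKR, a kinase bound by double-stranded RNA and induced by interferon, had 60.8 FPKM in the basal library of preparation 1 and 19.4, 21.5 and 20.5 FPKM in the others. With metformin it had 34.5 FPKM in preparation 1 and 19.0, 21.9 and 15.6 FPKM in preparations 2 to 4. Preparation 1 was thus the highest in both groups, and the log2 change was -0.30 (interval -0.67 to 0.08, adjusted p = 0.162), or -0.13 without preparation 1 (adjusted p = 0.556).

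Preparation 1 also stood apart in interferon-induced genes, which were chosen after the value of EIF2AK2 was seen. Of 12 such genes, 11 had a row, and all of these had a value above 0 except OAS1, which was listed at 0 in all libraries. In each of the other 10 the basal library of preparation 1 was the highest of the basal libraries. ISG15, a ubiquitin-like protein, had 942.6 FPKM there and 27.9, 18.9 and 28.4 FPKM in the other basal libraries, and with metformin it had 162 FPKM in preparation 1 and 48.5, 18.0 and 21.8 FPKM in the others. IFIT1, an RNA-binding interferon-induced protein, had 119.5 FPKM in the basal library of preparation 1 and 5.72, 7.16 and 5.23 FPKM in the others. Any part of this state in the values of EIF2AK2 was not tested. For other members a call that ends without preparation 1 is given beside the gene. For pathway and marker lists whose calls changed, a count, a range of counts or the gene is given.

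**Figure D2:**
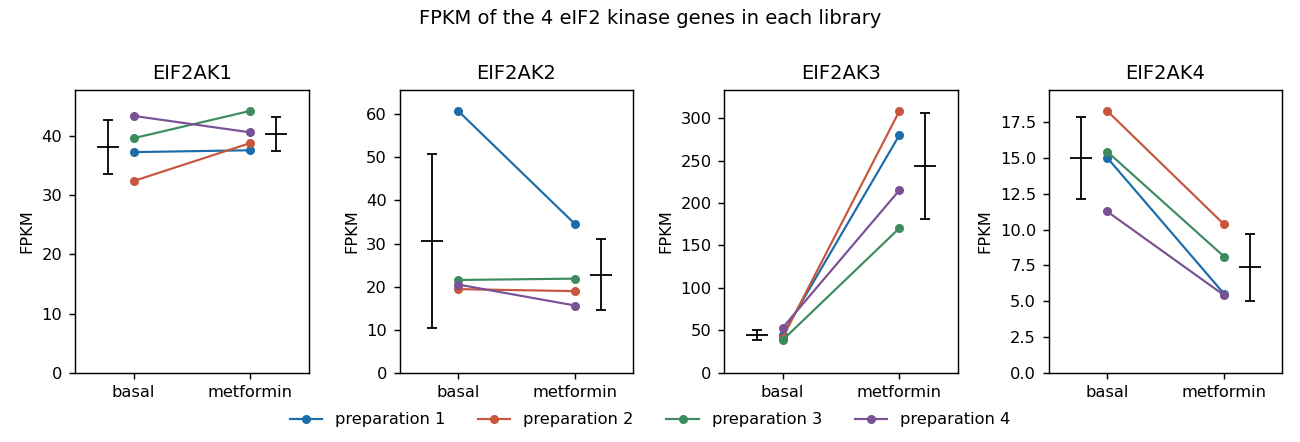
FPKM (y axis) of the 4 eIF2 kinase genes in basal and metformin libraries, with a line for each preparation and the mean ± SD of 4 libraries at the side. EIF2AK3 rises in each preparation from at most 53.0 to at least 170.5 FPKM, EIF2AK4 falls in each, EIF2AK1 stays between 32.4 and 44.3 FPKM, and the basal library of preparation 1 stands alone for EIF2AK2 at 60.8 FPKM.

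The summed FPKM of the 4 kinase genes was 128 ± 21.2 in basal and 314 ± 63.3 in metformin libraries and was above basal in each preparation. EIF2AK3 made up 28.4%, 37.0%, 33.4% and 41.4% of this sum in basal libraries and 78.3%, 81.9%, 69.7% and 77.7% with metformin. EIF2AK4 made up 8.79% to 16.4% in basal and 1.54% to 3.32% in metformin libraries. The FPKM ratio of EIF2AK3 to EIF2AK4 was 2.26 to 4.71 in basal and 21.0 to 50.7 in metformin libraries, an 11.2-fold increase on average (log2 3.49 ± 0.50, SD, n = 4). An exact 2-sided sign-flip test over 4 preparations cannot reach 0.05. All 8 ratios of members computed gave the smallest p this test allows, also after Benjamini-Hochberg adjustment, because each moved 1 way in all 4 preparations.

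EIF2S1, the alpha subunit of eIF2 that these kinases phosphorylate, had 27.0, 28.8, 25.7 and 23.3 FPKM in basal and 38.4, 49.7, 25.2 and 32.9 FPKM in metformin libraries. It was higher in preparations 1, 2 and 4 and slightly lower in preparation 3, and the call was marginal (log2 change 0.43 ± 0.14, adjusted p = 0.0485). Leaving out preparation 1, 2 or 4 ended it (adjusted p = 0.142, 0.153 and 0.127). The beta subunit gene EIF2S2 was listed at a low level, 6.15 ± 0.982 FPKM in basal and 6.55 ± 0.350 FPKM in metformin libraries, and its change did not pass (log2 change 0.09, interval -0.19 to 0.36, adjusted p = 0.558).

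Of the 5 subunits of eIF2B, the exchange factor that phosphorylated eIF2 inhibits, 1 fell and none rose. EIF2B1, the alpha subunit, had 20.0, 17.5, 14.6 and 20.2 FPKM in basal and 14.3, 13.1, 12.7 and 9.62 FPKM in metformin libraries, so the groups did not overlap. Its log2 change was -0.51 ± 0.15 (adjusted p = 0.0310), and leaving out preparation 1, 2 or 4 ended the call (adjusted p = 0.0796, 0.0685 and 0.0905). EIF2B5, the catalytic epsilon subunit, had 37.1, 34.1, 35.3 and 39.2 FPKM in basal and 33.4, 27.5, 30.9 and 28.1 FPKM in metformin libraries. The groups did not overlap, but the change did not pass (log2 change -0.27, interval -0.53 to -0.02, adjusted p = 0.0740), except after quantile normalization (adjusted p = 0.0329). EIF2B2, the beta subunit, had 36.5, 24.4, 37.3 and 44.1 FPKM in basal and 44.2, 38.8, 43.3 and 44.4 FPKM in metformin libraries, higher in each preparation, and did not pass (log2 change 0.28, interval -0.02 to 0.59, adjusted p = 0.113). It passed after median-of-ratios scaling (adjusted p = 0.0484). The gamma and delta subunit genes EIF2B3 and EIF2B4 had 12.5 to 17.5 and 21.0 to 26.8 FPKM in basal and 12.9 to 14.5 and 23.0 to 28.7 FPKM in metformin libraries, with 2 preparations higher and 2 lower for each (log2 changes -0.10 and 0.00). The FPKM ratio of EIF2S1 to EIF2B5 was 0.593 to 0.846 in basal and 0.816 to 1.81 in metformin libraries, higher in each preparation (log2 0.72 ± 0.42, SD, n = 4).

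EIF2D and EIF2A encode proteins that can bring initiator tRNA to ribosomes without eIF2. EIF2D had 15, 15.8, 17 and 16.9 FPKM in basal and 9.91, 10.7, 13.6 and 10.8 FPKM in metformin libraries, lower in each preparation with no overlap of the groups (log2 change -0.50 ± 0.11, adjusted p = 0.0109). Without preparation 1 its adjusted p was 0.0528. EIF2A had 42.1 to 46.8 FPKM in basal and 49.7 to 53.3 FPKM in metformin libraries. These groups did not overlap either, but the log2 change of 0.23 (interval -0.00 to 0.47, adjusted p = 0.0975) did not pass.

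Among the scanning and start codon factors, EIF1 (ENSOARG00000017410) was the most abundant member in both groups. It had 715.5, 576.2, 1013 and 1006 FPKM in basal and 1681, 1566, 1265 and 2045 FPKM in metformin libraries. The groups did not overlap, and the relative rise was smallest in preparation 3, where metformin was 1.25 times basal, against 2.03 to 2.72 times in the other preparations (log2 change 1.00 ± 0.19, adjusted p = 0.00612). Its paralog EIF1B had 117.8, 104.1, 147.5 and 165.4 FPKM in basal and 231.8, 205.0, 160.3 and 292.4 FPKM in metformin libraries (log2 change 0.72 ± 0.16, adjusted p = 0.0125). Its groups overlapped, and without preparation 1 the adjusted p was 0.0511. The EIF1B to EIF1 ratio was 0.146 to 0.181 in basal and 0.127 to 0.143 in metformin libraries. Both genes encode closely related proteins, and the labels do not say how reads shared by such copies were assigned, so the split between them is uncertain.

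EIF5, the GTPase-activating protein of eIF2, had 251.3, 218.1, 282.3 and 318.6 FPKM in basal and 325.4, 380.6, 319.6 and 425.1 FPKM in metformin libraries, all of the latter above all of the former (log2 change 0.44 ± 0.13, adjusted p = 0.0285). Leaving out preparation 1, 2 or 4 ended its call (adjusted p = 0.0770, 0.0688 and 0.0768). EIF5B, which joins the ribosomal subunits, the eIF1A gene listed as EIF1AY and the eIF1A-like EIF1AD had log2 changes of -0.11, -0.10 and 0.23 and did not pass. The symbol EIF1AY is that of the deposited table, and it was the 1 member symbol not found in the RefSeq gene list for the ARS-UI_Ramb_v3.0 sheep assembly.

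The eIF3 complex, which binds the small ribosomal subunit and the scaffold eIF4G, had 11 measured subunit genes, of which 5 rose and none fell. Those that rose were EIF3D, EIF3E, EIF3M, EIF3A and EIF3H, with log2 changes of 0.52, 0.52, 0.47, 0.41 and 0.41, and each was higher in all 4 preparations. EIF3D, a subunit that can itself bind the cap of some mRNAs, had 133.7, 89.5, 137.5 and 138.0 FPKM in basal and 181.3, 151.4, 174.3 and 205.0 FPKM in metformin libraries (adjusted p = 0.00976). EIF3E had 40.4, 34.5, 35.2 and 42.8 FPKM in basal and 52.3, 51.0, 51.5 and 65.7 FPKM in metformin libraries (adjusted p = 0.00766). In EIF3D, EIF3E, EIF3M and EIF3A the groups did not overlap.

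EIF3H had 118.6, 181.1, 196.7 and 220.8 FPKM in basal and 162.2, 242.7, 237.4 and 310.1 FPKM in metformin libraries, so preparation 1 was the lowest in both groups and the groups overlapped. Its adjusted p was 0.0162 with the preparation as a block and 0.275 without it. Leaving out preparation 1 or 4 ended the call of EIF3H (adjusted p = 0.0773 and 0.0603). For EIF3A (adjusted p = 0.0263) leaving out preparation 1, 2 or 4 did so (adjusted p = 0.0911, 0.0757 and 0.0819).

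The other 6 subunit genes had log2 changes between -0.00 for EIF3L and 0.22 for EIF3J and did not pass. EIF3G and EIF3K were higher in all 4 preparations, and EIF3B, EIF3I and EIF3L were higher in 2 and lower in 2. Levels within eIF3 were uneven: in basal libraries the mean FPKM ran from 38.2 ± 4.03 for EIF3E to 209 ± 31.0 for EIF3G. EIF3E, EIF3M and EIF3A, the subunit genes with the lowest basal levels, were among those that rose. As shares of the summed eIF3 FPKM, EIF3A, EIF3D, EIF3E and EIF3M were higher with metformin in 4 of 4 preparations, EIF3H in 3, and EIF3B, EIF3I and EIF3L in none. EIF3E took 2.34% to 3.04% of the sum in basal and 3.13% to 3.48% in metformin libraries.

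**Figure D3:**
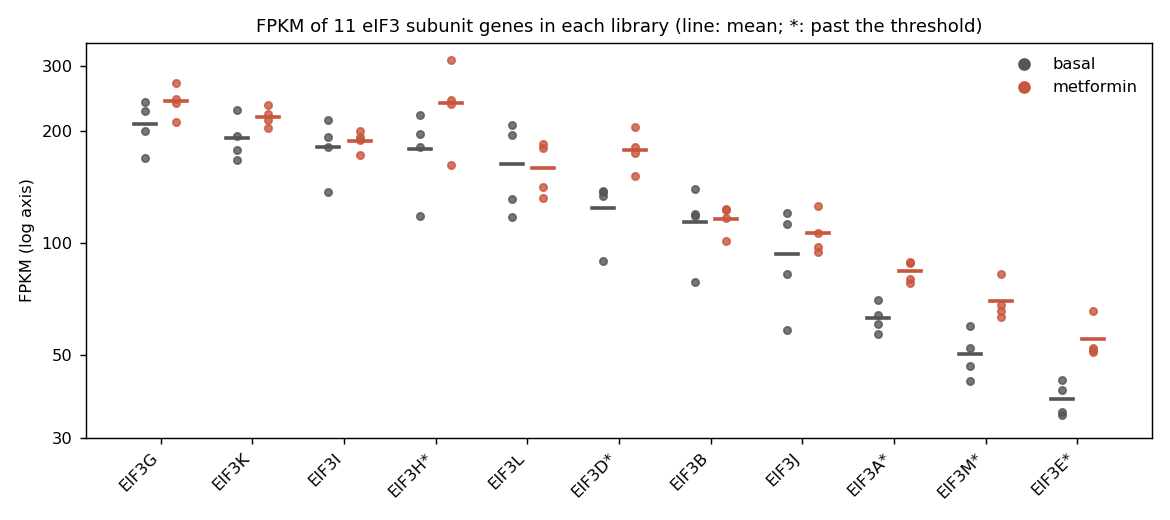
FPKM (log axis) of the 11 eIF3 subunit genes, ordered by basal mean, with a point for each of 4 basal and 4 metformin libraries and a line at each mean. The starred genes passed the test, and the metformin points of EIF3D, EIF3A, EIF3M and EIF3E lie above all their basal points.

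Of the cap-binding factors and their inhibitors, EIF4EBP1 (ENSOARG00000001124) changed most. It encodes the eIF4E-binding protein 4E-BP1, and its gene is known in mammals as a target of ATF4. It had 480.3, 352.0, 658.2 and 893.7 FPKM in basal and 1584, 1312, 1114 and 1347 FPKM in metformin libraries. All metformin libraries were above all basal libraries, and metformin was 3.30 and 3.73 times basal in preparations 1 and 2 and 1.69 and 1.51 times basal in preparations 3 and 4 (log2 change 1.24 ± 0.24, adjusted p = 0.00680). The preparations were further apart in basal libraries (596.0 ± 235 FPKM) than with metformin (1339 ± 193 FPKM). EIF4EBP2, the paralog 4E-BP2, had 318.4, 267.1, 350.4 and 440.7 FPKM in basal and 237.7, 258.1, 317.5 and 353.6 FPKM in metformin libraries. It was lower in all 4 preparations, but its groups overlapped and its change did not pass (log2 change -0.23, interval -0.49 to 0.03, adjusted p = 0.121). Quantile normalization of the libraries brought it past the threshold (-0.30, adjusted p = 0.0265).

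EIF4E, the cap-binding protein, had 120.5, 91.6, 148.7 and 182.4 FPKM in basal and 175.6, 177.1, 178.7 and 205.2 FPKM in metformin libraries (log2 change 0.48 ± 0.15, adjusted p = 0.0359). The basal library of preparation 4 lay above 3 of the metformin libraries, and leaving out preparation 1, 2 or 3 ended the call (adjusted p = 0.111, 0.0860 and 0.0526). The ratio of EIF4EBP1 to EIF4E was 3.99, 3.84, 4.43 and 4.90 in basal and 9.02, 7.41, 6.23 and 6.57 in metformin libraries, whereas that of EIF4EBP2 to EIF4E was 2.64, 2.92, 2.36 and 2.42 in basal and 1.35, 1.46, 1.78 and 1.72 in metformin libraries. EIF4EBP1 made up 62.3% ± 4.65 of the FPKM of both inhibitor genes in basal and 81.9% ± 4.17 in metformin libraries (SD, n = 4). The eIF4E-related EIF4E2 and EIF4E3 and the eIF4E transporter gene EIF4ENIF1 had log2 changes of 0.09, 0.23 and -0.22 and did not pass.

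**Figure D4:**
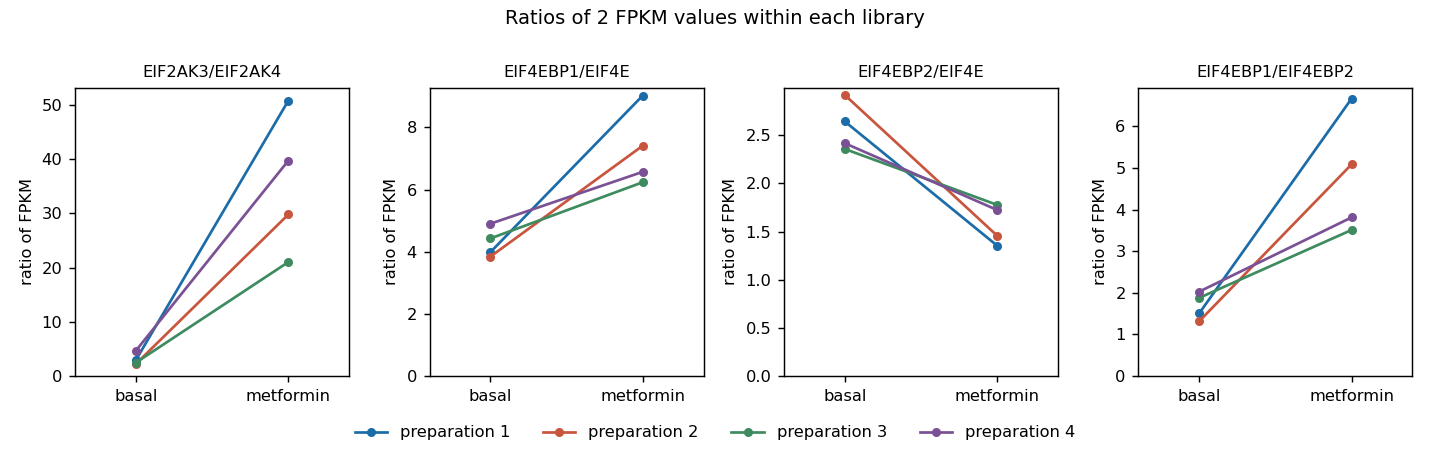
Ratio of FPKM of 2 genes within each library (y axis), with a line for each preparation. The ratio of EIF2AK3 to EIF2AK4 goes from 2.26 to 4.71 in basal to 21.0 to 50.7 in metformin libraries, and the EIF4EBP1 to EIF4E ratio rises while the EIF4EBP2 to EIF4E ratio falls in each preparation.

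Among the eIF4G scaffolds, EIF4G3 rose from 14.7, 17.8, 29.7 and 24.9 FPKM in basal to 24.6, 37.1, 30.9 and 31.5 FPKM in metformin libraries (log2 change 0.53 ± 0.17, adjusted p = 0.0404). The groups overlapped, and without preparation 1, 2 or 4 its adjusted p was 0.131, 0.1252 and 0.0698. EIF4G1, the main scaffold of cap-dependent initiation, had 192.0, 154.0, 223.1 and 231.4 FPKM in basal and 166.4, 150.5, 173.0 and 162.1 FPKM in metformin libraries. It was lower in all 4 preparations but did not pass (log2 change -0.28, interval -0.55 to -0.00, adjusted p = 0.0892), and it passed after median-of-ratios scaling (adjusted p = 0.0463) and quantile normalization (adjusted p = 0.0171). EIF4G2, which lacks the eIF4E-binding part, was the most abundant scaffold, at 579.4 ± 78.8 FPKM in basal and 607.6 ± 39.1 FPKM in metformin libraries, and did not pass (log2 change 0.08, interval -0.20 to 0.36). The EIF4G2 to EIF4G1 ratio was 2.78 to 3.054 in basal and 3.21 to 4.00 with metformin. The EIF4G3 to EIF4G1 ratio was 0.0765 to 0.133 in basal and 0.148 to 0.246 in metformin libraries. The summed FPKM of the 3 scaffold genes was 801.2 ± 118 in basal and 801.7 ± 34.9 in metformin libraries, higher in 2 of 4 preparations.

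The helicase gene EIF4A1 was the second most abundant member in basal libraries, with 705.2, 428.7, 856.2 and 1021 FPKM, and had 891.3, 693.7, 878.8 and 1040 FPKM with metformin. It was higher in each preparation, by 1.02 to 1.62 times, and did not pass (log2 change 0.27, interval -0.06 to 0.60, adjusted p = 0.148). EIF4B, an RNA-binding stimulator of eIF4A and a substrate of the S6 kinases, had 280.8, 299.9, 216.3 and 236.4 FPKM in basal and 416.8, 455.9, 340.3 and 423.2 FPKM in metformin libraries. The groups did not overlap, each preparation rose by 1.48 to 1.79 times, and the call held in all 12 alternatives (log2 change 0.66 ± 0.10, adjusted p = 0.00332). EIF4H, a related stimulator, and EIF5A2, an isoform of eIF5A, did not pass (log2 changes 0.12 and 0.16).

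**Figure D5:**
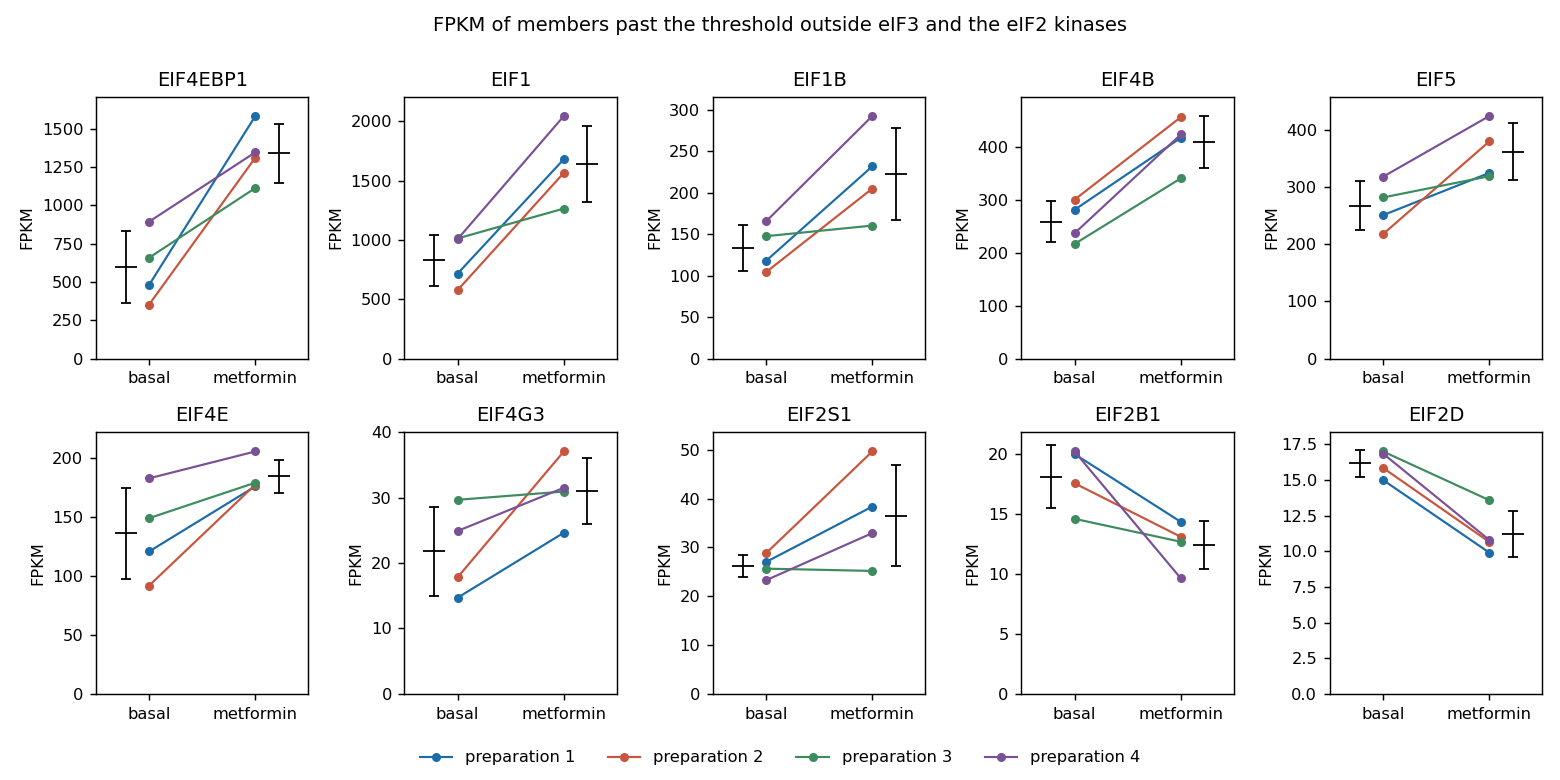
FPKM (y axis) of the 10 members past the threshold outside eIF3 and the eIF2 kinases, with a line for each preparation and the mean ± SD of 4 libraries at the side. EIF2S1 falls slightly in preparation 3, and all other lines run in the direction of the gene's call.

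By level, the members ran from EIF1 (828 ± 217 FPKM in basal libraries) through EIF4A1 (752.8 ± 252), EIF4EBP1 (596.0 ± 235) and EIF4G2 to EIF5A2 (6.40 ± 1.44) and EIF2S2, and neighbours among the first 4 differed by less than their SD. With metformin EIF4EBP1 was second. Of the 19 tested members with a basal mean of at least 100 FPKM, 8 rose and 0 fell, and of the 24 below it 6 rose and 3 fell. The shares of all genes in these ranges of level were not counted, so this split is not read as a trait of the members. The SE of the log2 change was of like size in both sets, with a median of 0.12 and 0.13.

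The authors' deposited table gives its own paired p-value for these genes, and a q-value for 32 of the 44 members. A p under 0.05 stood beside 16 members and a q under 0.05 beside 8 members of the authors' deposited table. The shares of all genes at these limits were not counted, so the 2 counts are not read as a result about the members. A member without a q-value cannot be among the 8, as with EIF2D at the authors' paired p of 0.00481. The authors' deposited q was 0.0267 for EIF2AK3 and 0.0284 for EIF2AK4, and 0.0545 for EIF1 and 0.0625 for EIF4EBP1.

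Genes that act beside the initiation factors were read from 7 lists with 80 tested genes, of which 24 rose and 12 fell. These shares, 30% and 15%, stand against 19.8% and 24.1% of all genes tested. The 24 include EEF1A2, which passed the filter through the metformin libraries and is not read as support. The counts were smaller in other fits: without preparation as a block 15 rose and 4 fell, against 9.68% and 9.48% of all genes, without preparation 1 there were 17 and 4, without preparation 2 there were 16 and 8, and without preparation 4 there were 19 and 6. Of the 6 genes that reverse eIF2 phosphorylation, 3 rose and none fell. PPP1R15A (GADD34), the stress-induced subunit that brings the phosphatase to eIF2, had 56.4, 42.5, 53.5 and 61.2 FPKM in basal and 280.0, 271.3, 147.1 and 296.9 FPKM in metformin libraries. Its rise (log2 change 2.16 ± 0.19, adjusted p = 0.000844) was of a size near that of EIF2AK3, and in both genes the metformin library of preparation 3 was the lowest of its group. The adaptor gene NCK1 and the catalytic subunit gene PPP1CB rose by 0.71 and 0.59 on the log2 scale. PPP1R15B, the constitutive targeting subunit, did not pass (log2 change 0.09, interval -0.20 to 0.38), and neither did PPP1CA or PPP1CC.

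Of 10 partners and regulators of the kinases 3 rose and 1 fell, and without preparation 1 there were 2 and none. In the main fit these were 30% and 10%, against 19.8% and 24.1% of all genes tested. HSPA5, the chaperone that holds PERK inactive, had 339.2, 355.8, 572.1 and 593.3 FPKM in basal and 687.8, 1017, 863.3 and 1649 FPKM in metformin libraries (log2 change 1.15 ± 0.17, adjusted p = 0.00298). KIAA0141, the older symbol of DELE1, which relays mitochondrial stress to HRI in human cells, had 44.96, 44.6, 22.5 and 42.6 FPKM in basal and 71.6, 70.8, 28.2 and 68.2 FPKM in metformin libraries (log2 change 0.57 ± 0.11, adjusted p = 0.00730). Preparation 3 was the lowest for this gene in both groups, and without the preparation as a block its adjusted p was 0.269. The GCN2 activator GCN1 (log2 change -0.16, interval -0.44 to 0.11) and the PERK inhibitor DNAJC3 (0.30, interval 0.05 to 0.56, adjusted p = 0.0544) did not pass, and the latter passed after median-of-ratios scaling (adjusted p = 0.0405).

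Of 9 stress genes downstream of eIF2 phosphorylation 6 rose and none fell. The share that rose was 66.7%, against 19.8% of all genes tested. Without preparation as a block 4 rose, TRIB3 and CHAC1 not passing, against 9.68% of all genes. With each gene's own variance in place of moderated variances 2 rose, against 5.83% of all genes, and ATF3 and ATF4 did not pass either. ATF4 had 637.8, 702.7, 1028 and 873.1 FPKM in basal and 2261, 1859, 1481 and 2255 FPKM in metformin libraries, and DDIT3 had 48.2, 36.0, 61.0 and 70.3 FPKM and 211.1, 266.3, 193.6 and 344.5 FPKM. In both genes all metformin libraries lay above all basal libraries (adjusted p = 0.00358 and 0.000766), as they did for CEBPB (log2 change 0.77, adjusted p = 0.00197) and ATF3 (1.31, adjusted p = 0.00212). TRIB3 was higher in all 4 preparations (log2 change 1.14, adjusted p = 0.00982), but its groups overlapped. It had 76.3 FPKM in the basal library of preparation 3 and 66.3 FPKM in the metformin library of preparation 2. CHAC1 was higher in 3 preparations and slightly lower in preparation 3, and its call was marginal (adjusted p = 0.0493) and ended without preparation 1, 2 or 4. The other 3 did not pass: ASNS and NUPR1 were higher in 2 preparations and lower in 2 (log2 changes -0.02 and 0.09), and SESN2 was higher in all 4 (0.38, adjusted p = 0.0691).

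Of 17 genes of the cap and the poly(A) tail 5 rose and 2 fell, and without preparation 1 there were 4 and none. Shares in the main fit were 29.4% and 11.8%, against 19.8% and 24.1% of all genes tested. MKNK2, a kinase of eIF4E, had 48.5, 55.1, 89.5 and 90.1 FPKM in basal and 153.8, 120.3, 166.1 and 181.0 FPKM in metformin libraries (log2 change 1.16 ± 0.14, adjusted p = 0.00177), and CTIF, an eIF4G-like factor of the nuclear cap-binding complex, rose by 0.80 on the log2 scale (adjusted p = 0.00238). PDCD4, an inhibitor of eIF4A, was lower in 3 of 4 preparations and did not pass (log2 change -0.40, interval -0.79 to -0.01, adjusted p = 0.0874), and without preparation 4 it passed (-0.60, adjusted p = 0.0191).

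Of 14 genes of scanning, recycling and related steps 2 rose and 2 fell, and without preparation 1 none rose and 1 fell. Each share in the main fit was 14.3%, below the 19.8% and 24.1% of all genes tested. The 2 that fell were the helicase genes DHX9 (log2 change -0.77, adjusted p = 0.00322) and DHX29 (-0.50, adjusted p = 0.0141), the latter not without preparation 1 or 4 (adjusted p = 0.0615 and 0.0551). Of 12 mTORC1 and S6 kinase genes 3 rose and 4 fell, or 25% and 33.3%, against 19.8% and 24.1% of all genes tested. These shares lie near those of all genes, so the counts are not read as a trait of the list. The stress-induced inhibitor genes SESN3 and SESN1 fell (log2 changes -1.37 and -1.09), and DDIT4, which encodes the stress-induced inhibitor REDD1, rose (0.83, adjusted p = 0.0358) with overlapping groups. MTOR and RHEB rose (adjusted p = 0.0395 and 0.0336). RPS6KB1 and RPS6KB2, the S6 kinase genes, fell (adjusted p = 0.0436 and 0.0240). The calls of MTOR, RHEB, RPS6KB1 and RPS6KB2 each ended without preparation 1, without preparation 2 and without preparation as a block. That of DDIT4 ended without preparation 2, 3 or 4 and without preparation as a block. In the list of 12, leaving out preparation 1, 2 or 4 left 1, 0 and 1 that rose and 2 that fell in each case. Without preparation 3 there were 1 and 3. Without preparation as a block none of the 12 rose and 2 fell.

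Of 12 tested genes of elongation and release 2 rose and 3 fell, and without preparation 1 or 4 there were 2 and 1. Main-fit shares were 16.7% and 25%, near the 19.8% and 24.1% of all genes tested, and are not read as a trait of the list. EEF2, the translocation factor, had 372.9, 331.1, 331.7 and 332.1 FPKM in basal and 577.0, 514.8, 531.1 and 630.9 FPKM in metformin libraries (log2 change 0.72 ± 0.10, adjusted p = 0.00285), and its inhibitory kinase gene EEF2K fell (log2 change -0.47, adjusted p = 0.0168). Leaving out preparation 1 or 4 ended the call of EEF2K (adjusted p = 0.0524 and 0.0603) and, without the block, its adjusted p was 0.178. The other gene counted as risen, the elongation factor isoform EEF1A2, had 1.09, 0.403, 0.143 and 2.19 FPKM in basal and 5.48, 3.75, 1.47 and 8.47 FPKM in metformin libraries. Its groups overlapped, and since only 2 basal libraries reached an FPKM of 1, it passed the filter through the metformin libraries, so its call is not read as support. EEF1A1, the isoform that most cells use at a high level, was listed at or near 0 in all libraries, with at most 0.129 FPKM, so its row is not read as its expression.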

How the data were processed

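Polyadenylated RNA was measured in 4 basal and 4 metformin libraries. The authors deposited FPKM for each gene in each library. The submitters' processing notes name Cufflinks and the Oar_v3.1 build. An aligner, an annotation release and tool versions are not stated there. The authors' deposited table also holds mean FPKM, a signed fold change (a score), p-values and q-values, the last with a placeholder where none was given. A placeholder stood in 4 FPKM cells, none of a member, and was treated as missing. Summed FPKM per library was 1024543 to 1257764, and the read depth is unknown, so the precision of a value rests on the 4 preparations.

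Testing used limma 3.58.1 (R 4.3.3) on values transformed to log2(FPKM + 1), for genes that reached an FPKM of 1 in 4 or more libraries, with preparation as a block, a variance trend and moderated variances, 2-sided, adjusted by Benjamini-Hochberg over all 13141 genes, at a threshold of 0.05. Log2 changes understate those of low genes. Deviations from group means correlated within preparations (r from 0.489 to 0.585), and the labels give the pairing.

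Members and lists were chosen with earlier results of these data known. Named were the 8 largest called changes in each direction that moved alike in all preparations, a fixed set of kinases, eIF2B, eIF4 and pathway genes, and the 2 lowest p of each list, and other members are given in brief. Further pathway genes named outside this rule, such as ATF3, TRIB3, CHAC1, ASNS, NUPR1, SESN2 and DDIT4, were chosen after their values were seen. Of 93 list entries 81 matched a row. IMPACT, PABPC1 and 8 family symbols of the RefSeq table (EIF1AX, EIF2S3, EIF3F, EIF4A2, EIF4A3, EIF4EBP3, EIF5A and EIF6) were not analysed here, nor were sequences or promoter motifs.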

Additional observations from a re-analysis of the deposited data

Results flagged for a closer look

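In 128 groups of 4 libraries, 10 held a library far from the other 3, by a criterion that chance meets in about 1 in 20 groups. Among the members, the basal library of preparation 1 had 60.8 FPKM of EIF2AK2 against 19.4 to 21.5 in the others, and the basal library of preparation 2 had 89.5 FPKM of EIF3D against 133.7 to 138.0. With metformin, preparation 4 had 65.7 FPKM of EIF3E against 51.0 to 52.3 and 205.2 FPKM of EIF4E against 175.6 to 178.7, and preparation 3 had 366.3 FPKM of EIF4H against 419.0 to 426.6.

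Among the pathway genes, KIAA0141 had 22.5 FPKM in the basal library of preparation 3 against 42.6 to 44.96 in the others, and 28.2 FPKM in its metformin library against 68.2 to 71.6. With metformin, PPP1R15B had 90.9 FPKM in preparation 1 against 58.9 to 62.9 and CTIF had 42.6 FPKM in preparation 2 against 26.0 to 27.6. EEF2 had 372.9 FPKM in the basal library of preparation 1 against 331.1 to 332.1.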

How the results depend on the processing

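All 17 called members kept their direction in the 12 alternatives, and EIF2AK3, EIF2AK4, EIF3E and EIF4B kept their calls in all of them. Of the members 14 rose and 3 fell. Without the replicate block 6 rose and 2 fell, with each gene's own variance in place of moderated variances 5 rose and 2 fell (5.83% and 6.75% of all genes), and after quantile normalization 13 rose and 6 fell (22.6% and 22.1% of all genes). Leaving out 1 preparation gave 7 to 13 members that rose and 1 to 3 that fell, with 7 and 1 without preparation 1, 9 and 2 without preparation 2 and 9 and 2 without preparation 4. With no filter 10 rose and 2 fell (11.2% and 14% of all genes). The calls that ended without the block were those of EIF1B, EIF5, EIF2S1, EIF2B1, EIF3D, EIF3H, EIF3M, EIF4E and EIF4G3, and with a gene's own variance those of EIF1 (adjusted p = 0.0797), EIF4EBP1 (0.0895) and 8 others. Of the pathway genes 24 rose and 12 fell, 15 and 4 without the replicate block and 9 and 3 with a gene's own variance. Leaving out 1 preparation gave 16 to 23 that rose and 4 to 10 that fell, with 4 without preparation 1 and 6 without preparation 4. The cause of these shifts was not tested. The 8 ratios kept their direction, with pseudocounts of 0.1 and 5 and without any 1 preparation.

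Among the tested members and pathway genes 21 changed sign in at least 1 alternative, 8 members and 13 pathway genes. None of the 21 was called, and the largest log2 change among them was 0.15 in size. Values follow for those given alone above. Over the leave-one-out fits the log2 change ran from -0.147 to 0.00904 for EIF2B3, from -0.0394 to 0.0560 for EIF2B4, from -0.0544 to 0.13 for EIF3B and from -0.0116 to 0.129 for EIF3I. It ran from -0.0917 to 0.0619 for EIF3L, from -0.0904 to 0.180 for EIF4E2, from -0.0153 to 0.154 for EIF4G2, from -0.0129 to 0.180 for EIF4H and from -0.0189 to 0.156 for PPP1R15B. Quantile normalization gave -0.0210 for EIF2B4, -0.0350 for EIF3B and -0.00359 for PPP1R15B, and median-of-ratios scaling gave 0.00707 for EIF3L.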
